A study of Mus musculus with 48 samples.

Results

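The RNA levels of 50 genes of the cell cycle and mitosis were followed through the hair cycle of mouse skin. They were the 50 symbols of a fixed list, each found once among the 46983 gene rows of both expression tables, and they fall into 7 roles: 17 genes of S phase entry, DNA replication and nucleotide supply, 9 of G2 and mitotic entry, 6 of the spindle checkpoint and the anaphase-promoting complex, 3 of the chromosomal passenger complex, 5 of the centromere and kinetochore, 8 of the spindle, mitotic kinesins and cytokinesis, and the pair Mki67 and Top2a. Whole skin of C57BL/6 mice was sampled from the chin, the ventrum and the dorsum at 6 labelled stages, namely competent telogen, the early, middle and late phases of anagen, catagen and refractory telogen, giving 18 groups of 2 or 3 libraries and 43 libraries in all. A second table of 7 libraries held 3 libraries of the ear cartilage/muscle complex, 2 of telogen ear skin and the same 2 dorsal competent telogen libraries as the first table. The labels name no transgene or treatment, and give neither ages nor which animals the libraries came from, so that p-values measure the spread between libraries, which may be technical. Values are FPKM (fragments scaled to transcript length and library size), from an estimated 6700000 to 28400000 fragments a library. The libraries did not keep strand, and the exons of 16 of the 50 genes overlap those of another gene. Values of these genes may hold reads of the neighbour. Among them Ube2c overlaps the muscle gene Tnnc2, Gins2 overlaps Gse1, Kif20a overlaps Cdc23 and Kif4 overlaps Pdzd11.

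The hair follicle rebuilds its lower part in every cycle. In telogen the follicle rests, in anagen matrix cells around the dermal papilla divide quickly and feed the growing shaft and its sheaths, and in catagen division stops and the lower follicle is lost. Genes of DNA replication, such as the MCM helicase subunits, the sliding clamp PCNA and the nucleotide enzymes, are switched on by E2F factors as a cell enters S phase. Cyclin B, CDK1, the Polo and Aurora kinases, kinetochore proteins and mitotic kinesins follow in G2 and mitosis, when the MYB-MuvB complex and FOXM1 act through CHR elements and NF-Y through CCAAT boxes. The resting epidermis also renews itself, so that skin never lacks dividing cells. In RNA from whole skin, fewer dividing cells and less RNA of these genes per cell cannot be told apart.

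The promoters of 6 members are shown because mitotic and replication genes carry different elements there. Sequences were taken from RefSeq on GRCm38.p6 and cover 250 bases before to 50 bases after the start, printed 5′ to 3′ on the strand of the gene. The letters searched on both strands were TTTGAA (a CHR element), CCAAT, and TTTCCCGC and TTTGGCGC (E2F elements), none of which contains another. Capitals mark every match.
Cdk1, chr10:69352863-69353162, minus strand: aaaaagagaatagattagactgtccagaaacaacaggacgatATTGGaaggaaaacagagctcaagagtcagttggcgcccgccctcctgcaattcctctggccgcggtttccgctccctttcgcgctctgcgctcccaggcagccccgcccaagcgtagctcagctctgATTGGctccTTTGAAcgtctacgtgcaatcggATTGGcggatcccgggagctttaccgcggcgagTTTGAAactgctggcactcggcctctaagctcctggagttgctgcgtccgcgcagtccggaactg
Ccnb1, chr13:100786437-100786736, minus strand: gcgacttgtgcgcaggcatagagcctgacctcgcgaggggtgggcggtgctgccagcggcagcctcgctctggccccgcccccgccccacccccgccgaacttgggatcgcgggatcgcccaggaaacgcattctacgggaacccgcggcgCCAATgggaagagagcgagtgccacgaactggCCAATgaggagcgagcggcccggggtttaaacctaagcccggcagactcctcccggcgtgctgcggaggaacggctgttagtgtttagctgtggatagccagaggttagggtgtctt
Mki67, chr7:135716330-135716629, minus strand: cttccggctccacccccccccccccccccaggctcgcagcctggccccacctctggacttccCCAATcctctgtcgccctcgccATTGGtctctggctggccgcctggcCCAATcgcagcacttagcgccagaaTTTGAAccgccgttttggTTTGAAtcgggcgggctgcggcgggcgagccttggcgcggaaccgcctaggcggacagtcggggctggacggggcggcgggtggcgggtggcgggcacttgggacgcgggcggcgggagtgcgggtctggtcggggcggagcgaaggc
Mcm5, chr8:75109259-75109558, plus strand: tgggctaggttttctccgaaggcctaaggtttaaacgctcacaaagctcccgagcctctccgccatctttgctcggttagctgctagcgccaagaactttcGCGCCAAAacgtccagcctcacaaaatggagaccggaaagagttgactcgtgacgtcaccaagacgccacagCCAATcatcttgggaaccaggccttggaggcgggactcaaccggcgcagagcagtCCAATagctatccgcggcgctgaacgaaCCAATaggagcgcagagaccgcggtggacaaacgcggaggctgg
Pcna, chr2:132253131-132253430, minus strand: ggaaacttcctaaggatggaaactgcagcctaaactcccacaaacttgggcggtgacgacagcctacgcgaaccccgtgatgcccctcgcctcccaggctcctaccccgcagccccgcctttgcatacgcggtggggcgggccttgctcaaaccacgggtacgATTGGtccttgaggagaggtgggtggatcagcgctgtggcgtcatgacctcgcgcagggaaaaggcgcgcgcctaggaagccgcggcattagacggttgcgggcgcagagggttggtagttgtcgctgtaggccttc
Ccne1, chr7:38107441-38107740, minus strand: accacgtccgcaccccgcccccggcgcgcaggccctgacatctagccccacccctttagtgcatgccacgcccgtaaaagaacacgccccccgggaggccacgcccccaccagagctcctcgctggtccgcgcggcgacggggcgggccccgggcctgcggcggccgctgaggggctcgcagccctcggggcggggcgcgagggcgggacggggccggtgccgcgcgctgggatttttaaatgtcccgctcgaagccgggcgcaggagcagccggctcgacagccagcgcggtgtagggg

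Of the 50 genes, 41 had an entry in the promoter table; Cdc25c, Tpx2, Mcm4, Foxm1, Ccna2, Aurkb, Gins2, Kif20a and Ccne2 had none. TTTGAA stood in 21 of the 41 promoters (51.2%) against 18.1% of all 27025 promoters of the table, and CCAAT in 30 of 41 (73.2%) against 37.9%. Over the 12247 promoters of genes tested in skin these shares were 12.7% and 38.2%. The split by role was wide. TTTGAA was in 5 of 6 promoters of the G2 and mitotic entry genes and in 5 of 6 of the spindle genes, but in 1 of 14 of the S phase genes. TTTCCCGC or TTTGGCGC was in 5 of the 14 S phase promoters (35.7%) and in none of the other members' promoters. The share was 1.63% of all promoters and 2.69% of those of genes tested in skin. In the printed windows the Cdk1 promoter held TTTGAA at positions -71 and -15 from the start and CCAAT on the opposite strand at -208, -80 and -48. Mki67 held TTTGAA at -116 and -98 and 3 CCAAT matches, while Mcm5 held TTTGGCGC on the opposite strand at -149 beside 3 CCAAT matches. The windows of Ccnb1 and Pcna matched CCAAT alone, and that of Ccne1 matched none of these letters.

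Several libraries stood apart from their stage labels, and these values precede the results they touch. Summed melanocyte markers (Dct, Pmel, Tyr and Tyrp1, 4 of 4 in the table), which pigment the growing shaft, lay between 7.45 and 17.0 FPKM in the 3 groups labelled refractory telogen and between 14.7 and 16.8 in the libraries labelled ventral early anagen. In every other skin group, the 3 labelled competent telogen included, they lay between 120 and 610. Summed hair matrix and shaft markers (8 of 9 in the table) were lowest in the libraries labelled ventral early anagen (2571 to 2757 FPKM) and reached 12595 to 12748 FPKM in those labelled dorsal competent telogen. The 2 libraries labelled chin late anagen correlated with the 2 labelled dorsal competent telogen at r = 0.981 to 0.983 across genes, where the replicates of any group ranged from 0.955 to 0.985 and other pairs of groups from 0.889 to 0.978. They held Hoxb6, a Hox gene of the trunk, at 6.16 and 7.13 FPKM against 0 to 1.42 in the other 12 chin libraries and 3.15 to 15.7 in the 14 dorsal ones. Of the 50 genes none differed between these groups (limma called 0.00941% of all 21257 genes tested, and 0 of the 50 had an unadjusted p under 0.05). A ventral catagen library carries a second label that places it in the ear, and it was kept where its title puts it. All groups are named by their labels. Counts that could still be fitted were repeated without the libraries labelled competent telogen, ventral early anagen and chin late anagen. Direct comparisons with these groups could not be repeated, and the test of domain by stage was not. Basal keratinocyte, fibroblast and muscle markers were present in all skin groups and also moved between groups: the summed muscle markers had group means from 184 FPKM in ventral catagen to 11118 in chin refractory telogen, and basal keratinocyte markers from 2299 in dorsal catagen to 13812 in ventral early anagen. Their part in the results was not tested.

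All 50 genes were detected and passed the filter on low values, and in each domain the level of all 50 changed over the stages. By limma's F-test on log2(FPKM + 1) with Benjamini-Hochberg adjustment, 50 of 50 were called in chin (66.2% of all genes), 50 in ventral (70.2%) and 50 in dorsal skin (68.5%). The mean over the 50 genes of log2(FPKM + 1) was highest in dorsal early anagen at 4.73 ± 0.01 (SD, n = 2), followed by ventral competent telogen at 4.51 ± 0.09 (n = 3), chin competent telogen at 4.26 ± 0.06 (n = 2), dorsal catagen at 4.23 ± 0.05 (n = 2) and chin early anagen at 4.23 ± 0.27 (n = 2). Chin competent telogen, dorsal catagen and chin early anagen lay within each other's spread. The lowest were chin refractory telogen at 2.38 ± 0.09 (n = 3), ventral refractory telogen at 2.32 ± 0.13 (n = 2), ventral early anagen at 2.25 ± 0.05 (n = 3) and dorsal refractory telogen at 2.24 ± 0.01 (n = 2). The libraries of these 4 groups lay between 2.21 and 2.49, and the group next above them was chin late anagen at 3.30 ± 0.02 (n = 2).

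**Figure D1:**
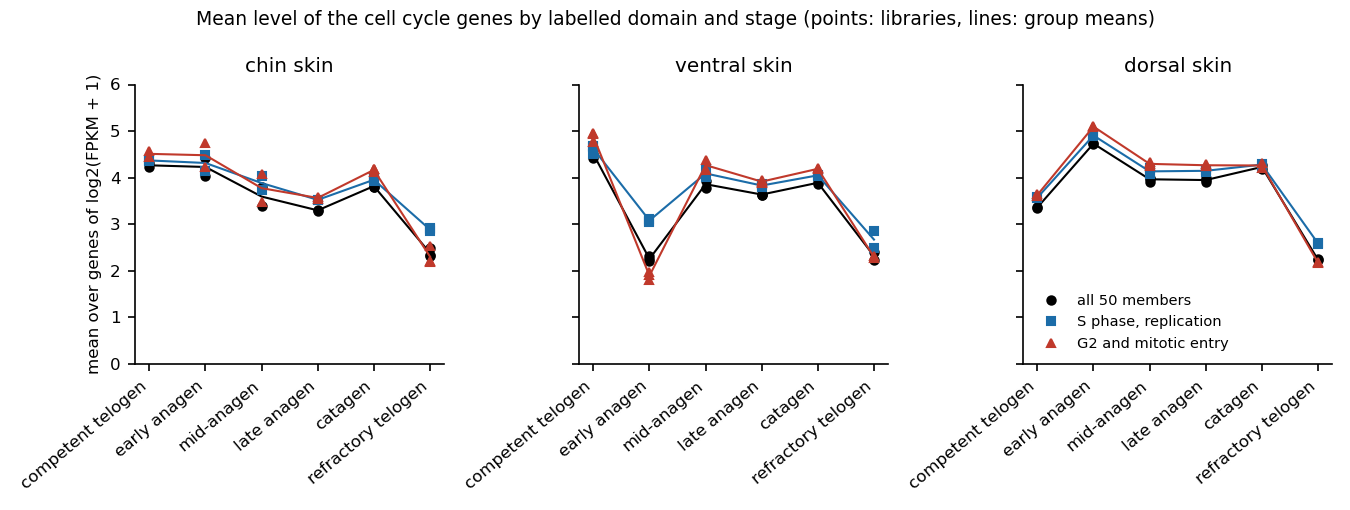
Mean over genes of log2(FPKM + 1) for all 50 genes, the 17 S phase genes and the 9 G2 and mitotic entry genes, by labelled stage in chin, ventral and dorsal skin. Points are libraries and lines join group means. The lowest points are the refractory telogen groups and ventral early anagen, where the mitotic entry genes lie below the S phase genes.

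Mki67, which encodes the Ki-67 protein that coats mitotic chromosomes and marks cycling cells, was low in the same 4 groups. It was at 12.9 and 13.4 FPKM in dorsal early anagen, 13.5 and 13.3 in chin competent telogen, 13.9 and 15.2 in chin early anagen, and 11.2, 12.5 and 11.1 in ventral competent telogen. In refractory telogen it was at 1.85, 2.05 and 1.81 in chin, 1.61 and 2.16 in ventral and 2.14 and 1.88 in dorsal skin, and in ventral early anagen at 1.42, 1.39 and 1.39. No library of these low groups overlapped with any other skin library, the next lowest being chin late anagen at 5.87 and 6.09. The highest Mki67 values of all were in dorsal catagen, at 22.8 and 23.0.

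Cdk1, the kinase that drives entry into mitosis, had the highest group mean of the G2 and mitotic entry genes. It reached 147 and 142 FPKM in dorsal early anagen and was at 12.6 and 13.5 in dorsal refractory telogen. In ventral skin it was at 117, 110 and 85.2 in competent telogen and at 11.2, 8.17 and 10.3 in early anagen. Its partner cyclin Ccnb1 went from 80.3 and 72.1 FPKM in dorsal early anagen to 5.99 and 4.68 in dorsal refractory telogen, and had the widest range over dorsal stages of the 50 genes, 3.61 on the log2 scale. Pcna stayed far above the floor at every stage: 126 and 122 FPKM in dorsal early anagen, and still 33.1 and 33.3 in dorsal refractory telogen. The range over stages had a median of 2.01 in chin, 2.46 in ventral and 2.65 in dorsal skin on the log2 scale, and was smallest for E2f1 in all 3 domains, from 0.54 in chin to 1.24 in dorsal skin.

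**Figure D2:**
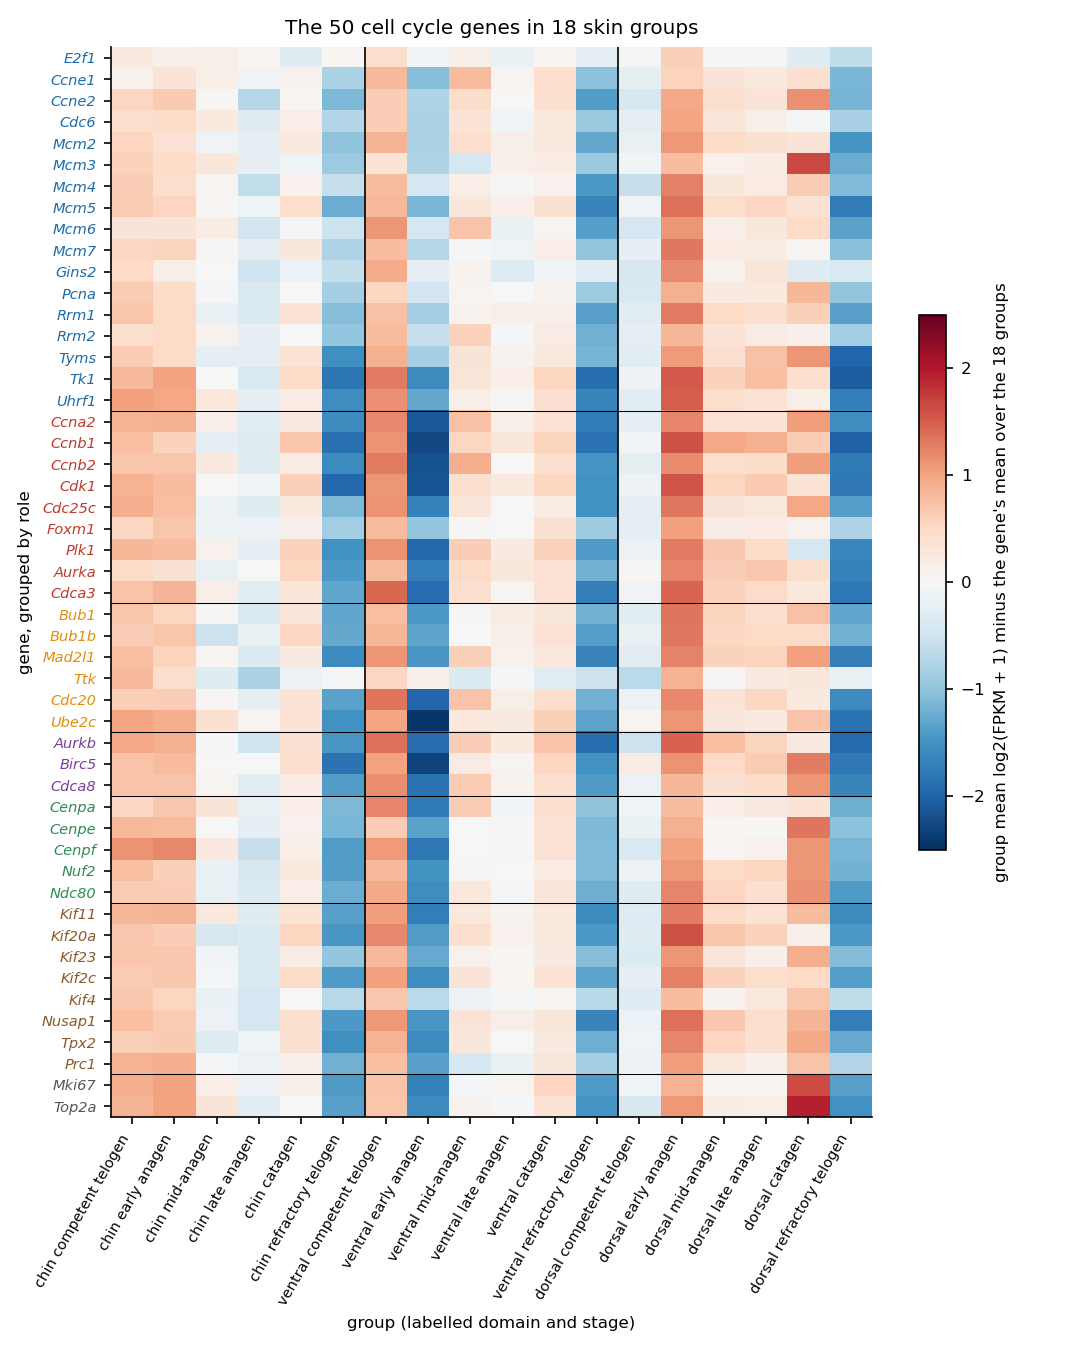
Group means of log2(FPKM + 1) minus each gene's mean over the 18 groups, with the 50 genes in rows coloured and grouped by role and the labelled domain and stage in columns. Most rows share 1 pattern, with blue columns at refractory telogen and ventral early anagen; Ttk, E2f1 and Gins2 stay pale, and Top2a, Mki67 and Mcm3 are darkest red in dorsal catagen.

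Dorsal skin shows the order for members of the other roles. Mcm5, a subunit of the MCM helicase, was at 10.2 and 9.95 FPKM in competent telogen, 32.3 and 27.7 in early anagen, and 2.55 and 2.49 in refractory telogen. Foxm1, an activator of mitotic genes, was low throughout, at 1.56 and 1.34, 4.83 and 5.05, and 0.81 and 0.59 at these stages. Cdc20, which activates the anaphase-promoting complex, was at 19.5 and 21.9, 54.9 and 53.2, and 6.87 and 7.08. In each gene the 3 groups did not overlap, with early anagen highest. Kif11, the kinesin that pushes spindle poles apart, followed the same order at 3.80 and 3.96, 13.4 and 14.2, and 1.07 and 0.97 FPKM. Ccne2, cyclin E2, was at 3.24 and 3.78, 10.1 and 11.1, and 1.64 and 1.66, but had its highest group mean of the 18 in dorsal catagen, at 13.5 and 11.1.

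The labelled stage at which a gene was highest differed between the domains. In ventral skin 50 of 50 genes had their highest group mean in competent telogen. In dorsal skin 40 were highest in early anagen and 10 in catagen. In chin skin 27 were highest in competent telogen, 22 in early anagen and 1 in catagen, but the first count was 7 without chin early anagen replicate 1 and 44 without replicate 2. The lowest stage was refractory telogen for 47 genes in chin and 48 in dorsal skin, and in ventral skin early anagen for 28 and refractory telogen for 21. The highest and lowest stages of all other genes were not counted, so these counts have no background share. They rest in part on the competent telogen and ventral early anagen groups, which stood apart from their labels.

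The step from catagen to refractory telogen was the one in which the genes fell together in all 3 domains. Lower in refractory telogen were 48 of 50 in chin (17.5% of all genes lower), 47 in ventral (18.8%) and 48 in dorsal skin (24.5%). The median log2 fold change over the 50 was -1.57, -1.56 and -2.07, against 0.09, -0.03 and 0 over all genes. The libraries labelled catagen still held summed melanocyte markers between 239 and 550 FPKM, against 7.45 to 17.0 in refractory telogen. Summed shaft markers had means of 16408, 14654 and 7236 FPKM in chin, ventral and dorsal catagen. In refractory telogen these were 3850, 9480 and 8897, and the part of these markers was not tested. Ccnb1 changed most in chin, from 41.0, 38.3 and 41.9 FPKM to 6.22, 6.72 and 5.20, a log2 fold change of -2.56 ± 0.20 (SE, limma adjusted p = 1.418e-11). Aurkb, the kinase of the passenger complex that corrects spindle attachment, changed most in ventral skin, from 21.3 and 18.5 to 2.5 and 2.39 FPKM (-2.60 ± 0.19, limma adjusted p = 2.918e-11). Top2a, the enzyme that untangles sister chromatids, changed most in dorsal skin, from 120 and 111 to 10.3 and 9.04 FPKM (-3.45 ± 0.16, limma adjusted p = 9.991e-16). The groups of these 3 genes did not overlap.

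The median change at this step was smallest over the S phase genes in all 3 domains. In chin the median log2 fold change was -0.99 over the S phase genes (16 of 17 lower), -1.80 over the G2 and mitotic entry genes (9 of 9 lower), -1.85 over the passenger complex (3 of 3) and -1.77 over the spindle genes (8 of 8). In ventral skin these medians were -1.44 (15 of 17), -1.98 (9 of 9), -2.05 (3 of 3) and -1.56 (8 of 8), and in dorsal skin -1.82 (15 of 17), -2.14 (9 of 9), -2.75 (3 of 3) and -1.93 (8 of 8). The checkpoint genes had medians of -1.72, -1.68 and -1.93 and the kinetochore genes of -1.40, -1.45 and -2.27 in chin, ventral and dorsal skin, and Mki67 and Top2a of -1.48, -1.89 and -3.22. These medians describe the roles, and the difference between roles was not tested. Exceptions were few. E2f1, which encodes an activator of S phase genes, was higher in chin refractory telogen at 2.56, 2.06 and 2.84 FPKM than in chin catagen at 2.04, 1.55 and 1.56 (0.36 ± 0.14, limma adjusted p = 0.03414); the call was lost with no filter on low values, with median-of-ratios factors and when 1 of 4 of these 6 libraries was left out. Gins2, a subunit of the replicative helicase, did not pass in ventral or dorsal skin, with -0.17 ± 0.18 (limma adjusted p = 0.5265) and -0.05 ± 0.18 (limma adjusted p = 0.8662). Its exons overlap those of Gse1, whose part in its values was not tested. Ttk, the checkpoint kinase MPS1, did not pass in chin or ventral skin, and E2f1 did not in ventral or dorsal skin.

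Against competent telogen, refractory telogen was also lower for 49 of 50 genes in chin (18.4% of all genes lower), 50 in ventral (34.5%) and 47 in dorsal skin (11.3%). The median log2 fold changes were -1.99, -2.17 and -1.13. These comparisons rest on the libraries labelled competent telogen, which stood apart from their label. Their summed melanocyte markers lay between 125 and 231 FPKM, against 7.45 to 17.0 in refractory telogen, and the part of this was not tested. Cdk1 in chin changed most, from 97.1 and 80.3 FPKM to 9.06, 18.1 and 8.94 (-2.85 ± 0.20, limma adjusted p = 2.675e-12), and E2f1 least (-0.18 ± 0.16, limma adjusted p = 0.4121). In ventral skin Aurkb changed most (-3.26 ± 0.17, limma adjusted p = 1.039e-14) and E2f1 least (-0.66 ± 0.16, limma adjusted p = 0.0009914). In dorsal skin Birc5, the inhibitor-of-apoptosis protein survivin that also targets the passenger complex, changed most, from 54.4 and 47.2 to 11.6 and 12.4 FPKM (-1.99 ± 0.16, limma adjusted p = 3.477e-10). Gins2, Kif4 and Ttk did not pass there, and Ttk stood at 2.36 and 2.70 against 3.89 and 4 FPKM (0.49 ± 0.19, limma adjusted p = 0.06319); it passed as higher with median-of-ratios factors (limma adjusted p = 0.031) and with dorsal libraries alone (limma adjusted p = 0.01048).

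In dorsal skin the genes rose from competent telogen to early anagen: 50 of 50 were higher (35.2% of all genes higher), with a median log2 fold change of 1.44 against 0.25 over all genes. Aurkb rose most, from 7.71 and 7.85 FPKM to 33.2 and 35.3 (2.00 ± 0.19, limma adjusted p = 1.952e-09). E2f1 rose least, from 2.46 and 2.13 to 4.50 and 3.72 (0.63 ± 0.17, limma adjusted p = 0.003405), a call lost with median-of-ratios factors. This step rests on the dorsal competent telogen libraries that match chin late anagen; from them to early anagen the summed shaft markers had means of 12671 and 5258 FPKM and the fibroblast markers of 1243 and 5133, and their part was not tested. From early to mid-anagen 49 of 50 were lower (30.1%), with a median of -0.77 against -0.18 over all genes. Mcm7, an MCM helicase subunit, changed most (-1.11 ± 0.10, limma adjusted p = 6.12e-10), and Ccne1, the G1/S cyclin E1, did not pass (-0.25 ± 0.18, limma adjusted p = 0.2759). Between mid-anagen and late anagen limma called 0 of 50 (2.68% of all genes called), and 1 of the 50 had an unadjusted p under 0.05. Pcna was at 72.1, 77.0 and 85.8 FPKM in mid-anagen and 78.8, 78.7 and 80.6 in late anagen.

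Dorsal catagen did not move the genes as a block. Of the 50, 23 were higher than in late anagen (20% of all genes higher) and Gins2, Kif20a and Plk1 were lower (18.7% lower); leaving out dorsal catagen replicate 1 or 2 left 14 or 15 higher. Top2a rose from 32.7, 32.0 and 34.1 FPKM to 120 and 111 (1.78 ± 0.15, limma adjusted p = 1.139e-10). Mki67 rose from 7.04, 6.87 and 7.2 to 22.8 and 23.0 (1.58 ± 0.08, limma adjusted p = 1.147e-14), and Mcm3, another MCM subunit, from 22.4, 19.5 and 22.6 to 59.8 and 62.0 (1.46 ± 0.15, limma adjusted p = 9.631e-09). For all 3 genes the groups were far apart. Cenpf, a kinetochore protein, rose by 0.99 ± 0.15 (limma adjusted p = 5.803e-06) and Birc5 by 0.63 ± 0.15 (limma adjusted p = 0.0008644). In the opposite direction Plk1, the Polo-like kinase of mitotic entry, fell from 12.8, 12.3 and 11.4 FPKM to 5.42 and 6.94 (-0.88 ± 0.16, limma adjusted p = 3.575e-05). Kif20a, a kinesin of the central spindle, and Gins2 were lower by smaller amounts (-0.45 ± 0.15, limma adjusted p = 0.01388, and -0.62 ± 0.16, limma adjusted p = 0.003097). Both calls were lost without dorsal catagen replicate 2, and that of Kif20a also without dorsal catagen replicate 1 or dorsal late anagen replicate 3. By role, 4 of 5 kinetochore genes and 6 of 8 spindle genes were higher, but 4 of 17 S phase genes and 3 of 9 mitotic entry genes. The basal keratinocyte marker sum was at its lowest of the 18 groups in dorsal catagen, as given above, and its part was not tested.

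In ventral skin the order of the first stages was the reverse of the dorsal one. Early anagen was lower than competent telogen for 50 of 50 genes (29.3% of all genes lower), with a median log2 fold change of -2.35 against -0.10 over all genes. Ccnb2, cyclin B2, changed most, from 58.7, 57.9 and 46.1 FPKM to 2.94, 4.76 and 4.26 (-3.48 ± 0.17, limma adjusted p = 5.982e-16). Ttk changed least, from 6.32, 8.17 and 6.75 to 5.07, 5.35 and 4.96 (-0.39 ± 0.15, limma adjusted p = 0.03993), a call lost with a pseudocount of 0.1, no filter, median-of-ratios factors or ventral libraries alone, and when any of 5 of these 6 libraries was left out. From early anagen to mid-anagen 46 of 50 were higher (16.8%), with a median of 1.66; Ccnb2 rose most (3.08 ± 0.19, limma adjusted p = 1.39e-13), while Ttk was lower (-0.48 ± 0.17, limma adjusted p = 0.02489), a call lost with no filter on low values, with ventral libraries alone and without ventral early or mid-anagen replicate 2, and E2f1, Gins2 and Mcm3 did not pass. Both steps rest on the libraries labelled ventral early anagen. Their melanocyte markers lay within the range of the refractory telogen groups, and their shaft markers below that of each.

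The later steps moved few genes. In ventral skin 10 of the 50 were lower in late than in mid-anagen (11.6% of all genes lower), led by Ccnb2 (-0.91 ± 0.19, limma adjusted p = 0.0005094), and 3 without ventral mid-anagen replicate 2. Mcm3 went the other way, from 14.1 and 13.2 to 23.3, 19.4 and 19.1 FPKM (0.56 ± 0.15, limma adjusted p = 0.008492). In ventral catagen 2 genes were higher than in late anagen (2.83%). These were Mki67, at 10.2 and 10.2 against 6.82, 7.43 and 6.91 FPKM (0.48 ± 0.08, limma adjusted p = 0.0003706), and Uhrf1, which keeps DNA methylation through replication (0.37 ± 0.11, limma adjusted p = 0.04957). Leaving out single libraries of any group left 1 to 4 genes.

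In chin skin the first difference was not detectable: between early anagen and competent telogen limma called 0 of 50 (2.14% of all genes called), and 0 of the 50 had an unadjusted p under 0.05. The 2 chin early anagen libraries lay apart, with Cdk1 at 67.1 and 101 FPKM. From early to mid-anagen 35 of 50 were lower (14.5%), with a median of -0.68 against -0.16 over all genes; the count was 19 without chin early anagen replicate 2 and 18 without chin mid-anagen replicate 2. Bub1b, the checkpoint kinase BUBR1, changed most (-1.22 ± 0.16, limma adjusted p = 4.959e-06) and E2f1 least (0.02 ± 0.17, limma adjusted p = 0.9968). All 8 spindle genes and 8 of 9 mitotic entry genes were lower, but 7 of 17 S phase genes.

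From chin mid-anagen to late anagen 11 genes were lower (12.3%), led by Cenpf (-0.82 ± 0.17, limma adjusted p = 0.0008087), and 5 to 25 when a library of either group was left out. From late anagen to catagen 33 were higher (8.94%), led by Ccnb1, from 18.2 and 21.8 to 41.0, 38.3 and 41.9 FPKM (0.99 ± 0.22, limma adjusted p = 0.003071); without chin late anagen replicate 1 or 2 the count was 15 or 12. E2f1 stood against the majority at -0.36 ± 0.16 (limma adjusted p = 0.1284). Both steps rest on the chin late anagen libraries that match dorsal competent telogen.

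The number of genes that differed between domains depended on the stage, and comparisons in the same fit share libraries. By the F-test over the 3 domains 50 of 50 genes were called at competent telogen (54.0% of all genes) and 50 in early anagen (51.6%). In mid-anagen 28 were called (38.1%), in late anagen 38 (20.8%), in catagen 26 (42.9%) and in refractory telogen 7 (42.2%). The profile over stages also differed: 50 of 50 passed the interaction of domain and stage (73.3%). Without the dorsal catagen libraries 50 of 50 also passed, in a test that left out the catagen terms of all 3 domains. Several of these counts rest on single groups. The competent telogen count and the interaction have no refit without the libraries that stood apart from their labels. Without the libraries labelled competent telogen, ventral early anagen and chin late anagen, a pair of domains remained at early and at late anagen. Then 26 genes differed between chin and dorsal early anagen, and 4 between ventral and dorsal late anagen. Without dorsal catagen 1 gene differed between chin and ventral catagen. With all libraries 27%, 3.14% and 5.19% of all genes were called in these 3 pairs. With the libraries of the stage fitted alone the mid-anagen count was 7 and the refractory telogen count 2, and with no filter on low values the mid-anagen count was 18. The mid-anagen count was 14 without chin mid-anagen replicate 2, and the late anagen count 25 without chin late anagen replicate 2.

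At late anagen 40 of 50 genes had higher levels in dorsal skin than in chin (13.7% of all genes higher), Ccnb1 most, at 45.5, 45.1 and 48.8 against 18.2 and 21.8 FPKM (1.18 ± 0.22, limma adjusted p = 0.0002667). E2f1, Ccne1, Mcm3, Rrm2, Cdc25c, Foxm1, Ube2c, Cenpa, Cenpe, Prc1, Mki67 and Top2a did not pass the late anagen F-test. Both late anagen results rest on the chin late anagen libraries, which match dorsal competent telogen and held the trunk gene Hoxb6 at 6.16 and 7.13 FPKM. At catagen dorsal skin had 25 genes above chin (21.3%) and 24 above ventral skin (19.0%). Top2a led both, at 1.92 ± 0.15 (limma adjusted p = 2.2e-11) and 1.60 ± 0.16 (limma adjusted p = 6.827e-09), and Plk1 was lowest in both, at -0.99 ± 0.16 (limma adjusted p = 6.149e-06) and -1.0 ± 0.17 (limma adjusted p = 3.032e-05).

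In refractory telogen 7 of 50 genes differed between domains, while 42.2% of all genes did. Bub1, which recruits checkpoint proteins to kinetochores, was at 0.32, 0.67 and 0.31 FPKM in chin, 0.29 and 0.82 in ventral and 0.46 and 0.37 in dorsal skin, and the groups overlapped. Tpx2, a spindle assembly factor, was at 1.42, 1.87 and 1.76 in chin, 1.76 and 3.00 in ventral and 2.12 and 2.41 in dorsal skin. The 7 were Aurkb and the S phase genes E2f1, Mcm4, Mcm5, Mcm6, Mcm7 and Tyms. Mcm4 was higher in chin at 5.26, 5.62 and 5.72 FPKM than in ventral skin at 2.04 and 3.27, a ventral over chin log2 fold change of -0.86 ± 0.12 (limma adjusted p = 3.315e-06). Mcm6 was at 10.6, 12.4 and 11.3 in chin against 6.15 and 6.10 in dorsal skin (-0.80 ± 0.17 for dorsal over chin, limma adjusted p = 0.0004345). Tyms, thymidylate synthase, was at 19.7 and 19.3 in ventral against 10.0 and 11.2 in dorsal skin (-0.82 ± 0.18 for dorsal over ventral, limma adjusted p = 0.001816); the calls of Mcm6 and Tyms were lost when the refractory telogen libraries were fitted alone. The 2 ventral libraries differed, with Mcm5 at 1.80 and 4.09 FPKM, and leaving out replicate 2 or 1 of that group gave 12 or 14 called genes.

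Over the 18 group means the members followed their common mean closely, which is a description since that mean was made from them. The Pearson correlation with it had a median of 0.97, against 0.09 over all 21257 genes, and was above 0.9 for 45 of 50. The lowest were Ttk at 0.56, E2f1 at 0.59, Gins2 at 0.71 and Mcm3 at 0.85. Ttk was at 4.53, 4.68 and 4.11 FPKM in chin refractory telogen against 3.05 and 4.13 in mid-anagen. The 10 other genes with the highest correlation over the 18 groups were Shcbp1 (0.995), Esco2, Cdca5, Tacc3, Racgap1, Ncapg, Melk, Ska1, Kif22 and Cenpn (0.988). Of a wider list of 65 other cell cycle genes, 57 were lower in refractory telogen than in catagen in chin (17.5% of all genes lower), 60 in ventral (18.8%) and 60 in dorsal skin (24.5%). Its mitosis genes lay nearest to the members, with a median correlation of 0.97 over 33 genes against 0.91 over 22 replication genes. Of the 65, 57 lay above 0.8, and the lowest was Pttg1, securin, at -0.57, the only one below 0.

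Regulators of G1 did not move as a block. Of 20 genes, 19 passed the filter (Cdkn2a, which encodes p16 and ARF, did not), and their median correlation with the members' mean was 0.44. Rbl1 (p107, 0.94) and Cdk4 (0.92) followed the members, and Cdk2 (0.87) and Ccnd1 (cyclin D1, 0.84) less closely. Cdkn2b (p15, -0.58), Cdkn1a (p21, -0.28), Ccnd3 (cyclin D3, -0.23) and Cdkn1c (-0.06) lay below 0, as did 8905 of all 21257 genes. In refractory telogen over catagen 6 of the 19 were higher and 6 lower in chin (30.5% of all genes higher and 17.5% lower), 4 higher and 9 lower in ventral (14.9% and 18.8%), and 4 higher and 11 lower in dorsal skin (19.1% and 24.5%). Ccnd3 and Cdkn1c, the CDK inhibitor p57, were higher in all 3 domains. The log2 fold changes of Ccnd3 were 0.86, 0.53 and 1.49, and those of Cdkn1c 1.53, 1.17 and 0.82. Cdk4, the kinase partner of cyclin D, was lower in all 3, at -0.92, -0.76 and -0.57, and Rbl1 at -0.63, -0.99 and -1.59.

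In the ear the cartilage/muscle complex held most mitotic genes near 0. Here 49 of 50 genes were lower than in dorsal skin (28.3% of all genes lower) and 50 lower than in ear skin (38.5%), with medians of -2.07 and -2.09 against 0.24 and -0.11 over all genes. Cdk1 was at 0.27, 0.42 and 0.21 FPKM, against 32.3 and 31.7 in ear skin and 44.1 and 43.4 in dorsal skin, and had the largest difference in both comparisons (-5.11 ± 0.09, limma adjusted p = 6.604e-08 against dorsal skin; -4.67 ± 0.09, limma adjusted p = 1.303e-07 against ear skin). Of the 50 genes, 30 were under 1 FPKM in all 3 libraries, among them 8 of 9 mitotic entry genes, 7 of 8 spindle genes and both Mki67 and Top2a. Bub1 was listed at 0 in all 3.

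Of the 17 S phase genes, 4 were under 1 FPKM in the complex, a difference between roles that was not tested, and Pcna was at 36.5, 39.9 and 42.2 FPKM, between the 33.1 and 33.3 of dorsal refractory telogen and the 69.6 and 74.8 of ear skin (-0.85 ± 0.08 against ear skin, limma adjusted p = 0.0001138). Mcm5 was at 5.63, 6.26 and 4.94. Mcm4, at 6.68, 7.47 and 6.36 against 5.43 and 5.63 in dorsal skin, was higher by 0.26 ± 0.09 (limma adjusted p = 0.03235), a call lost with no filter on low values, after rescaling to TPM and with median-of-ratios factors. The smallest difference from ear skin was that of Foxm1, a factor of mitotic genes at 2.17 and 1.43 FPKM in ear skin and 0.81, 0.77 and 0.43 in the complex (-0.74 ± 0.16, limma adjusted p = 0.007716). The complex held summed muscle markers at a mean of 13312 FPKM and cartilage markers at 1538, against basal keratinocyte markers at 27.1. The part of this cell content in the differences was not tested.

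**Figure D3:**
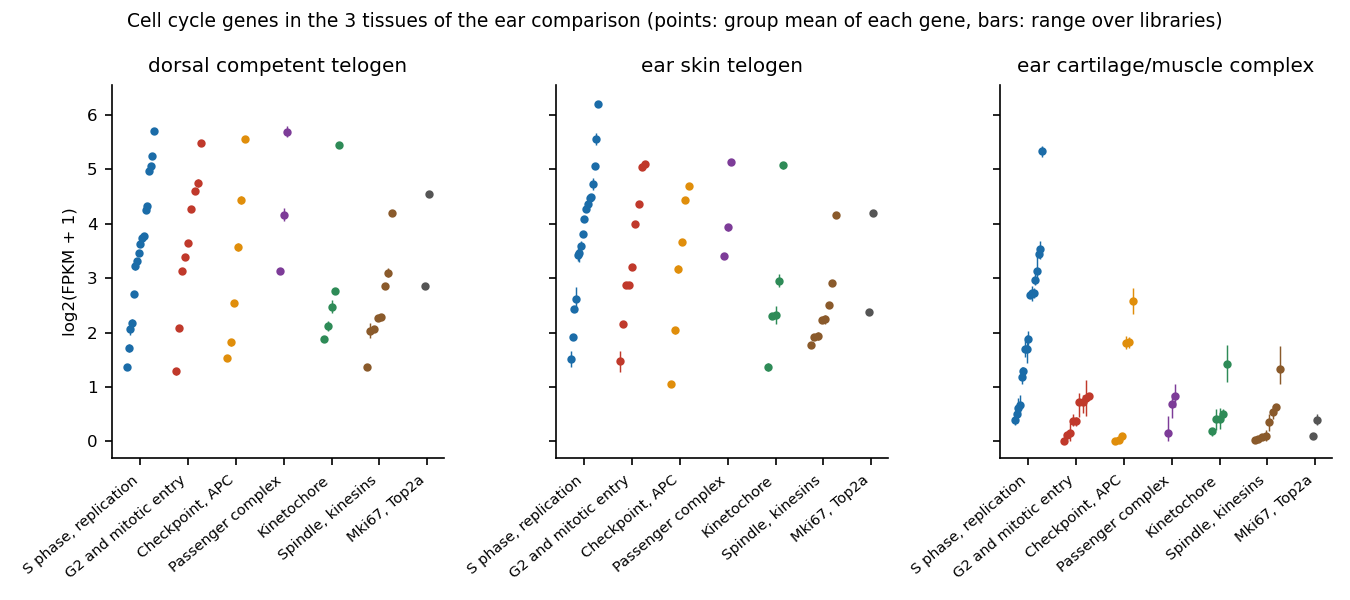
Log2(FPKM + 1) of each of the 50 genes by role in the cartilage/muscle complex of the ear, in ear skin in telogen and in dorsal competent telogen skin; points are group means and bars the range over 2 or 3 libraries. In the complex the S phase genes spread from near 0 to that of Pcna, and most genes of the other roles lie near 0.

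Ear skin and dorsal skin differed in some of the genes, in both directions. Compared with the dorsal libraries of the same table, 8 of 50 genes were higher in ear skin (44.7% of all genes higher) and 12 lower (14.6%). The higher ones were E2f1, Gins2, Kif4, Mcm4, Mcm6, Pcna, Rrm1 and Ttk, of which 6 are S phase genes. The lower ones were Aurka, Birc5, Bub1, Bub1b, Cdk1, Cenpe, Kif11, Mki67, Rrm2, Top2a, Tpx2 and Ube2c. Ttk was at 7.49 and 8.42 against 2.36 and 2.70 FPKM (1.34 ± 0.10, limma adjusted p = 0.0001131), and Mcm4 at 12.6 and 13.6 against 5.43 and 5.63 (1.11 ± 0.09, limma adjusted p = 0.0001557). Ube2c, the ubiquitin-conjugating enzyme of the anaphase-promoting complex, was lowest (-0.86 ± 0.09, limma adjusted p = 0.0004365), and Mki67 stood at 4.22 and 4.18 against 6.27 and 6.12 (-0.47 ± 0.09, limma adjusted p = 0.004678). The split depended on the scale: 19 were higher and 8 lower after rescaling to TPM, and 4 higher and 25 lower with median-of-ratios factors, which moved the median of all genes from 0.33 to 0.51 and 0.06. It depended more on the dorsal group, because with the dorsal refractory telogen libraries 47 of 50 were higher in ear skin and 0 lower, Ube2c and Mki67 among the higher ones (1.05 and 0.79). The share of all genes called was not counted on these scales or with that dorsal group. The 47 of 50 therefore cannot be set against a shift of genes in general. Ear skin held few shaft markers (111 to 114 FPKM in sum). Other marker sums differed too, with means in ear and dorsal skin of 10530 and 1243 FPKM for fibroblasts, 128 and 32.5 for leukocytes, 9227 and 3934 for basal keratinocytes, and 838 and 3593 for skeletal muscle, whose gene Tnnc2 overlaps Ube2c. Their part was not tested.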

How the data were processed

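Whole-skin RNA was amplified by SMART-seq2 and sequenced as unstranded paired-end libraries. The authors mapped reads to mm10 with GENCODE vM8 annotation, and the deposited values are FPKM per gene from RSEM 1.2.25; they state a batch correction without detail. Read depth was not given, and was estimated from the smallest FPKM steps of 10974 genes with 1 transcript at 6700000 to 28400000 fragments a library. Samples were grouped by their labels.

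Genes with at least 0.5 FPKM in 2 libraries were tested on log2(FPKM + 1) by limma 3.58.1 in R 4.3.3, with a mean-variance trend: 21257 genes in 43 skin libraries and 19299 in the ear table. Fold changes are on that scale, which understates low genes. P-values were adjusted by Benjamini-Hochberg over all genes tested, with a threshold of 0.05, and the fit was tested on simulated data. The members and lists were chosen with earlier results of these data known. By rule, 20 members spread over the roles were given with values, and the members with the largest and smallest change in a comparison, the exceptions to it, the G1 regulators and the 10 other genes most correlated with the members' mean were named; Hoxb6 and further members were chosen after their values were seen. Alternatives were a pseudocount of 0.1, no filter, TPM or median-of-ratios scaling, a replicate block, separate fits and leaving out each library. Same-numbered libraries of different groups deviated together no more than others (median correlation 0.003 over 327 pairs). The numbers thus gave no sign of pairing, which this cannot exclude because the values were batch-corrected.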

Additional observations from a re-analysis of the deposited data

Results flagged for a closer look

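For 50 of the 50 genes the profile over stages differed between chin, ventral and dorsal skin, by limma's F-test for a domain by stage interaction, as it did for 73.3% of all genes tested. The step from competent telogen to early anagen ran in opposite directions: 50 genes were lower in early anagen in ventral skin and 50 higher in dorsal skin. The libraries labelled ventral early anagen held melanocyte markers within the range of the refractory telogen groups, and hair shaft markers below that of each. Those labelled dorsal competent telogen held shaft markers at 12595 to 12748 FPKM and matched chin late anagen. The part of either in the interaction was not tested, and the interaction was not refitted without these libraries.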

How the results depend on the processing

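Counts over stages, the interaction and the refractory telogen steps kept their direction and stayed within 1.5 times under every alternative fitted. The interaction was not refitted without the libraries that stood apart from their labels, and comparisons with competent telogen could not be. TPM rescaling and median-of-ratios factors moved the median of all genes by up to 0.19 and 0.30 (log2) in skin and 0.22 and 0.34 in the ear table. Counts between domains were 18 at mid-anagen with no filter and 7 with those libraries alone, and at refractory telogen 12 with median of ratios and 2 alone. Chin catagen over late anagen gave 21 higher genes with median of ratios and 18 with chin libraries alone. Ventral catagen over late anagen gave 4 with median of ratios and 1 with a pseudocount of 0.1, no filter, TPM, ventral libraries alone or no dorsal catagen. Ear skin over dorsal skin gave 19 higher with TPM, and 4 higher and 25 lower with median of ratios; 6 were lower with a pseudocount of 0.1. Some alternatives were chosen after seeing the data. Without the libraries that stood apart, 26 genes differed between chin and dorsal early anagen and 4 between ventral and dorsal late anagen. Between chin and ventral catagen 1 gene differed without dorsal catagen. Ear skin against dorsal refractory telogen gave 47 higher and 0 lower, and Ube2c (1.05) and Mki67 (0.79) reversed. No share of all genes was counted for that fit. The mean level of the members in refractory telogen minus mid-anagen was -1.45, -1.84 and -2.04 (chin, ventral, dorsal) with a pseudocount of 0.1, -1.10, -1.69 and -1.85 with TPM, and -1.61 in dorsal skin with median of ratios. Gins2 in dorsal refractory telogen over catagen reversed to 0.095 with median of ratios, and ranged from -0.26 to 0.15 with 1 library left out, positive without dorsal catagen replicate 1. E2f1 in chin mid-anagen over early anagen reversed to -0.10 with TPM, and ranged from -0.10 to 0.14 with 1 library left out, negative without chin early anagen replicate 2 or chin mid-anagen replicate 1. The cause of these changes was not tested.

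Leaving out 1 library gave 14 to 34 genes differing between domains at mid-anagen, 25 to 39 at late anagen and 5 to 14 at refractory telogen. Chin steps gave 18 to 42 lower in mid-anagen, 5 to 25 lower in late anagen and 12 to 39 higher in catagen. Ventral steps gave 3 to 11 lower in late anagen and 1 to 4 higher in catagen, and dorsal catagen 14 to 24 higher. Between 7 and 44 genes were highest in chin competent telogen, and the chin level difference was -1.42 to -0.999. With the replicate block, 5 genes differed between domains at refractory telogen, and no count moved by over 1.5 times. No paired analysis was possible for the ear table because the numbers in the ear skin column names do not match those in the sample titles. Depth, not given by the submitters, limits values under 1 FPKM most.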
